A study of Saccharomyces cerevisiae with 63 samples.

Results

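The 8 genes described here encode proteins that couple the shape of a yeast bud to the cell cycle, or that place the bud. They are the protein kinase genes ELM1, HSL1, GIN4, KCC4 and SWE1, the adaptor gene HSL7, the GTPase gene RSR1 and SKG6. They were taken by name from a count table of 6088 genes. The names had been selected on results already computed from the levels of these libraries over strains and times, and which values weighed in the choice is not recorded, so the tests below describe the fit and are no independent support. All 8 passed the filter on low counts that left 5822 genes for testing. Polyadenylated RNA had been sequenced from 63 libraries of diploid SK1 budding yeast, a laboratory background that sporulates fast. The strains were an ime4 mutant, a pho92 mutant and a control called WT, and all 3 carried IME1, the gene of the transcription factor that starts meiosis, under a copper-inducible promoter (pCUP-IME1). Cells stood in sporulation medium with 0.3% potassium acetate for 0, 2, 3, 5, 6, 7 or 9 h, and 50 µM copper sulfate went in at 2 h, so every group from 3 h on had received copper. There were 21 groups, 1 per strain and time, and the labels name 3 biological replicates in each. Ime4 is the catalytic subunit of the enzyme that places N6-methyladenosine (m6A) on mRNA in meiosis, and Pho92 is a YTH-domain protein that binds m6A.

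In a budding cell a ring of septin filaments marks the neck between mother and bud. Elm1 is a kinase that acts on the ring and activates the septin-associated kinases Hsl1 and Gin4, and Kcc4 is a relative of both at the same site. Hsl1 brings the adaptor Hsl7 to the neck, Hsl7 brings the kinase Swe1, and Swe1 is then degraded. Swe1 is the yeast Wee1 kinase, which holds back the cyclin-dependent kinase Cdc28 by phosphorylating a tyrosine, and it can also delay meiosis when recombination is incomplete. Rsr1, also called Bud1, is a Ras-like GTPase that tells the polarity machinery where to build the bud, and Skg6 is a membrane protein of sites of polarised growth. A meiotic cell makes no bud, so these transcripts are followed here outside the process for which their proteins are best known.

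The strain labels were checked on the mutated genes. IME4 reached at most 2.37 CPM, read counts scaled to the library size, in the ime4 libraries, and at least 37.4 CPM in the WT libraries. PHO92 reached at most 4.27 CPM in the pho92 libraries, and its lowest WT value was 4.42 CPM, at 0 h. NDT80, the transcription factor gene that drives the middle phase of meiosis, served to place the libraries along the course. At 5 h its mean was 180 CPM in ime4, 362 CPM in pho92 and 1028 CPM in WT, and at 6 h it was 432 CPM in ime4, 1331 CPM in pho92 and 5424 CPM in WT. At 7 h it was 1010 CPM in ime4, 3370 CPM in pho92 and 6269 CPM in WT, and at 9 h 3271 CPM in ime4, 2497 CPM in pho92 and 1014 CPM in WT. At 5, 6, 7 and 9 h the mutants therefore stood at another NDT80 level than WT at the same hour. At 3 h the means were 21.5 CPM in ime4, 54.9 CPM in pho92 and 85.1 CPM in WT, and pho92 libraries overlapped those of WT. In ime4, pho92 and WT they were 9.93, 9.85 and 9.65 CPM at 2 h, and 25.9, 26.4 and 21.9 CPM at 0 h. From 3 h on, stage and strain cannot be told apart at a given hour. Near levels of NDT80 at 0 and 2 h do not show an equal stage. Total counts per library lay between 12826747 and 33048881. In such bulk RNA, fewer cells with a transcript and less transcript per cell cannot be told apart.

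The genes lie on 7 chromosomes, given here on the S288C assembly R64. GIN4 (YDR507C) lies at chrIV:1462358-1465786, KCC4 (YCL024W) at chrIII:79162-82275, HSL1 (YKL101W) at chrXI:248920-253476 and ELM1 (YKL048C) at chrXI:347214-349136. SWE1 (YJL187C) lies at chrX:76803-79262, HSL7 (YBR133C) at chrII:501804-504287, RSR1 (YGR152C) at chrVII:794674-795492 and SKG6 (YHR149C) at chrVIII:394455-396659. HSL1 and KCC4 are on the plus strand and the other 6 on the minus strand. Each coding sequence is 1 uninterrupted part, and 0 annotated genes overlap any of them. GIN4 and KCC4 are close relatives, yet no pair of the 8 shared a run of 50 bases, the length of a read, and the longest shared run of any of the 28 pairs was 15 bases.

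Because several of these genes moved together, 500 bases before each start codon were searched on both strands for 4 short motifs. ACGCGT is the MCB element of the G1/S factor MBF, CNCGAAA the SCB element of its relative SBF, GGCGGC the core of the URS1 element bound by Ume6, and GNCACAAA the core of the MSE element bound by Ndt80. Of 6019 protein-coding genes, 5.4% held the MCB letters, 22.0% the SCB letters, 9.5% the URS1 core and 6.9% the MSE core. GIN4 and KCC4 each held 1 MCB and 1 SCB match, HSL1 held 5 SCB matches, SWE1, HSL7 and RSR1 held 2 each, SKG6 held 1 and ELM1 held 0. The letters GGCGGC and GNCACAAA were found before 0 of the 8 genes. Other spellings of the URS1 and MSE elements were not searched, so a looser match is not excluded. None of the matches overlapped another. The stretches of 30 bases below, from R64 and not from SK1, show 1 match for each gene that had any, written 5′ to 3′ on the gene's own strand with the matching letters in capitals.
GIN4, MCB, chrIV:1466079-1466108, minus strand: tcatcgaaggaaACGCGTcaaatccattcg
KCC4, MCB, chrIII:78984-79013, plus strand: ctgtgcaagaaaACGCGTaacgcagtctta
SKG6, SCB, chrVIII:396931-396960, minus strand: ttttttttttttTTTCGCGaagcgataaac
HSL1, SCB, chrXI:248753-248782, plus strand: cttgctactaatCGCGAAAagagataaata
RSR1, SCB, chrVII:795732-795761, minus strand: gacattctcaaaCGCGAAAtatcgtcgaaa
SWE1, SCB, chrX:79553-79582, minus strand: gggtgataacgaCGCGAAAaatattttttc
HSL7, SCB, chrII:504515-504544, minus strand: tcacaaatggaaCCCGAAAcagcacgctgc
In these stretches the SCB letters stood on the gene's strand except in SKG6, where they stood on the other. The GIN4 match began 310 bases before the start codon and the KCC4 match 166 bases before it. A match is a description of the letters only, and binding was not tested.

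In WT, all 8 transcripts were higher at 3 h, 1 h after copper, than at 2 h, and SWE1 moved most. SWE1 had 240, 317 and 276 CPM in the 3 libraries of 3 h, against 73.9, 41.8 and 28.2 CPM in those of 2 h. The groups did not overlap, and the log2 fold change was 2.54 (SE 0.23, adjusted p = 2.12e-13). Here and below, fold changes and their standard errors (SE) are edgeR estimates on the log2 scale, and adjusted p is from its quasi-likelihood test with Benjamini-Hochberg adjustment over all genes tested, called under 0.05. HSL1, the kinase that ties Swe1 to the neck, averaged 170 ± 7.05 CPM at 3 h and 53.2 ± 20.2 CPM at 2 h (SD, n = 3 each; log2 1.68, SE 0.18). The other log2 rises were 1.60 for GIN4, 1.54 for ELM1, 1.26 for RSR1, 1.13 for HSL7, 1.02 for SKG6 and 0.80 for KCC4, the last lost without WT replicate 3 (0.47, adjusted p = 0.125). That makes 8 of 8 called higher, where 36.3% of all genes tested were called higher and 29.3% lower (65.6% in either direction). The median of the 8 was 1.40, against 0.10 over all genes. The members had been chosen with earlier results of these data known, so this count and those that follow are a description.

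Before copper, between 0 and 2 h, 5 of the 8 had already risen in WT, 0 had fallen and 3 were not called, where 26.6% of all genes were called higher and 30.4% lower (56.9% in either direction). KCC4 had 31.3, 19.1 and 17.5 CPM at 2 h, against 7.27, 5.45 and 5.49 CPM at 0 h, a log2 rise of 1.90 (SE 0.23, adjusted p = 7.72e-10). SWE1 rose 2.33-fold, SKG6 by 0.79 on the log2 scale (SE 0.23), RSR1 by 0.75 (SE 0.16) and GIN4 by 0.57 (SE 0.22, adjusted p = 0.0248). Without WT replicate 1 GIN4 was not called (0.31, adjusted p = 0.32), and HSL1 (−0.52, adjusted p = 0.032) and ELM1 (−0.45, adjusted p = 0.0361) were called lower, against −0.24 and −0.17 with all libraries. In that replicate at 2 h, GIN4, HSL1, KCC4, ELM1, SWE1, HSL7, RSR1 and SKG6 all had their highest value of the 3 WT libraries.

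After 3 h the WT courses parted. GIN4 fell to 13.7, 22.8 and 22.0 CPM at 6 h, against 103, 130 and 137 CPM at 3 h (log2 −2.65, SE 0.23, adjusted p = 4.59e-14). SWE1 fell by 2.48 (SE 0.23) and SKG6 by 2.39 (SE 0.24), so that 17.9% and 18.8% of their 3 h means remained at 6 h, beside 15.8% of that of GIN4. KCC4 fell by 1.18, RSR1 by 1.05, HSL1 by 0.99 and ELM1 by 0.82. HSL7, the adaptor that carries Swe1 to Hsl1, went the other way, with 228, 185 and 146 CPM at 6 h and 239, 257 and 265 CPM at 7 h, against 73.2, 81.5 and 79.4 CPM at 3 h. Its log2 rise to 6 h was 1.26 (SE 0.18, adjusted p = 2.45e-08), but 0.12 (adjusted p = 0.392) when total counts alone scaled the libraries. That makes 1 of 8 called higher and 7 lower (0 and 7 with total counts only), where 33.5% of all genes were called higher and 43% lower (76.5% in either direction). Total-count scaling moved the median of all genes by −1.10 in this comparison, and by 0.22 for 2 h over 0 h, 0.35 for 3 h over 2 h and 0.32 for 9 h over 6 h.

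Between 6 and 9 h in WT, 4 of the transcripts fell and 4 rose. KCC4 fell further by 1.96 (SE 0.24), GIN4 by 1.38 and HSL1 by 1.33. HSL7 fell by 0.97 and was still at 122% of its 3 h mean. GIN4 ended at 6.76, 8.69 and 7.20 CPM and KCC4 at 4.16, 5.11 and 4.09 CPM, the lowest group means of either gene in the series. RSR1 rose by 0.98 (SE 0.16, adjusted p = 2.14e-07), with a mean of 59.8 ± 10.2 CPM at 9 h and 30.3 ± 6.47 CPM at 6 h, and so stood at 95.6% of its 3 h mean. ELM1 stood at 85% of its own at 9 h, SWE1 at 30.7% and SKG6 at 28.9%. These and the other shares of a 3 h mean rest on TMM scaling. With total counts only, the log2 change of HSL7 was 0.12 from 3 to 6 h and −0.63 from 6 to 9 h. For RSR1 the same 2 steps were −2.18 and 1.32, and for ELM1 −1.94 and 0.92. SWE1 rose by 0.77 (SE 0.22), ELM1 by 0.58 (SE 0.16) and SKG6 by 0.60 (SE 0.25, adjusted p = 0.0251). Without WT replicate 3 ELM1 was not called (0.37, adjusted p = 0.0938). SKG6 was not called when WT replicate 1 was left out (0.47, adjusted p = 0.135), 2 (0.49, adjusted p = 0.135) or 3 (0.62, adjusted p = 0.0597) and without pho92 replicate 1 (0.50, adjusted p = 0.0566). The pho92 libraries enter this WT comparison through the shared scaling and spread, which were both refitted. Without pho92 replicate 1 the estimates of GIN4 (−1.47) and ELM1 (0.49) were lower too. With 4 called higher and 4 lower, the 8 stood beside 34% of all genes called higher and 45.9% lower (79.9% in either direction).

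**Figure D1:**
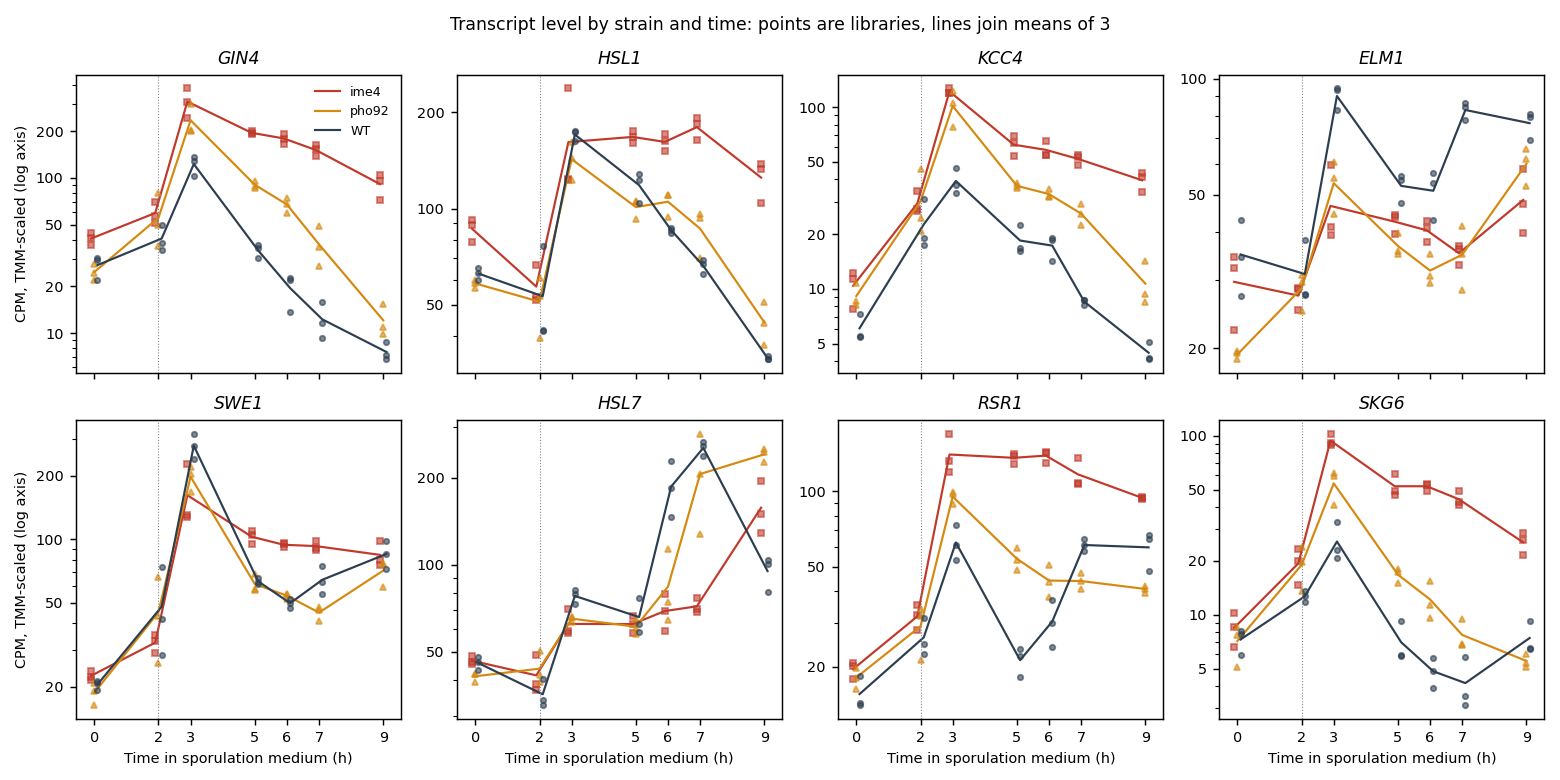
Levels of the 8 genes (CPM on the TMM-scaled library size, log axes whose ranges differ between panels) against hours in sporulation medium, with 1 point per library and lines through the means of ime4, pho92 and WT (n = 3 each). The dotted line marks the addition of copper at 2 h. GIN4, KCC4, RSR1 and SKG6 had their highest mean at 3 h in each strain and were highest in ime4 from 3 h on. HSL7 had its highest mean at 9 h in ime4 and in pho92 and at 7 h in WT.

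Per kilobase of gene, the order of the levels changed between strains. At 3 h in ime4, RSR1 led with 171 ± 32.1 CPM per kb, ahead of GIN4 with 90.1 ± 19.6 and SWE1 with 65.8 ± 23.4, whose libraries overlapped those of GIN4. In pho92 at 3 h RSR1 led with 116 ± 7.05 CPM per kb, ahead of SWE1 with 80.4 ± 11.0 and GIN4 with 68.3 ± 16.7, which overlapped. In WT at 3 h SWE1 led with 113 ± 15.6 CPM per kb, followed by RSR1 with 76.4 ± 12.7 and ELM1 with 46.9 ± 3.35, none of them overlapping. HSL1 with 37.4 and GIN4 with 35.6 CPM per kb overlapped next to each other in WT, and HSL7 followed with 31.4. KCC4 with 12.6 and SKG6 with 11.6 CPM per kb were lowest there and overlapped (SD, n = 3 throughout). At 9 h RSR1 led in ime4 (115 CPM per kb) and in WT (73.1 CPM per kb), and HSL7 led in pho92 (97.1 CPM per kb).

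GIN4, KCC4 and SKG6 stayed far higher in ime4 than in WT from 3 h to the end of the course. GIN4 had 309, 244 and 380 CPM in ime4 at 3 h, against 103, 130 and 137 CPM in WT (log2 1.34, SE 0.22, adjusted p = 4.52e-06). At 7 h it had 140, 162 and 153 CPM in ime4, against 9.23, 16.0 and 11.6 CPM in WT (log2 3.65, SE 0.25, adjusted p = 1.72e-17). No ime4 library overlapped a WT library at either time. With total counts only the 7 h value was 5.41, where that scaling moved the median of all genes by 1.78. At 9 h GIN4 still averaged 91.3 ± 17.1 CPM in ime4 and 7.55 ± 1.01 CPM in WT (log2 3.59), so that 29.3% of the 3 h mean remained in ime4 and 6.14% in WT.

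SKG6, whose protein sits in the membrane at growth sites, had 49.1, 53.3 and 54.0 CPM in ime4 at 6 h, against 3.91, 5.71 and 4.86 CPM in WT. The log2 fold change was 3.41 (SE 0.24, adjusted p = 1.78e-16), and its other values after copper were 1.87 (3 h), 2.89 (5 h), 3.44 (7 h) and 1.77 (9 h). KCC4 had 127, 119 and 120 CPM in ime4 at 3 h, against 33.8, 37.4 and 46.5 CPM in WT (log2 1.64, SE 0.21, adjusted p = 2.89e-08). Its difference was 1.75 (5 h), 1.74 (6 h) and 2.61 (7 h), and 3.15 at 9 h (SE 0.24, adjusted p = 4.24e-16). At 9 h KCC4 stood at 41.4, 43.2 and 34.1 CPM in ime4, against 4.16, 5.11 and 4.09 CPM in WT. The ime4 and WT libraries of SKG6 and KCC4 were apart at every time from 3 h on.

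RSR1, the bud-site GTPase, was called higher in ime4 at each time after copper. It had 139, 129 and 140 CPM in ime4 at 5 h, against 18.2, 22.1 and 23.5 CPM in WT, the highest log2 fold change of RSR1 at any time (2.67, SE 0.16, adjusted p = 4.52e-18). At 6 h its ime4 mean was 99.0% of that at 3 h, and in WT it was 48.5%. The difference was 1.16 (3 h), 2.20 (6 h) and 0.94 (7 h), and 0.65 at 9 h (SE 0.15, adjusted p = 0.000159), as RSR1 returned in WT. HSL1, the relative of GIN4 and KCC4, was not called at 3 h, with 124, 122 and 238 CPM in ime4, against 174, 175 and 162 CPM in WT, which overlapped (log2 −0.08, adjusted p = 0.768). Without ime4 replicate 3, the library at 238 CPM, it was called lower (−0.47, adjusted p = 0.0413). It separated from WT later, by 0.50 (adjusted p = 0.0169) at 5 h, 0.92 at 6 h, 1.44 at 7 h and 1.87 (SE 0.19, adjusted p = 1.41e-12) at 9 h. Leaving out ime4 replicate 1 (0.47, adjusted p = 0.0528) or WT replicate 2 (0.41, adjusted p = 0.114) ended the 5 h call. At 9 h HSL1 had 138, 133 and 104 CPM in ime4, against 34.7, 33.9 and 33.8 CPM in WT.

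SWE1, the Wee1 kinase, was lower in ime4 at 3 h and higher from 5 to 7 h. At 3 h it had 130, 127 and 228 CPM in ime4, against 240, 317 and 276 CPM in WT (log2 −0.78, SE 0.21, adjusted p = 0.0047). The call was lost without ime4 replicate 1 (−0.64, adjusted p = 0.0568), ime4 replicate 2 (−0.63, adjusted p = 0.0731) or WT replicate 2 (−0.65, adjusted p = 0.0613). In ime4 at 3 h, replicate 3 also had the highest value of the 3 for GIN4, HSL1, ELM1, HSL7, RSR1 and SKG6. At 6 h SWE1 had 94.8, 95.8 and 91.8 CPM in ime4, against 47.2, 52.1 and 50.0 CPM in WT (log2 0.92, SE 0.22, adjusted p = 0.000197). The difference was 0.70 at 5 h (adjusted p = 0.00597) and 0.53 at 7 h (adjusted p = 0.0237). The 7 h call was lost with the RLE scaling factors (0.35, adjusted p = 0.124), with DESeq2 (0.35, adjusted p = 0.131) and without ime4 replicate 3 (0.49, adjusted p = 0.0554), WT replicate 2 (0.49, adjusted p = 0.0798) or WT replicate 3 (0.40, adjusted p = 0.113). At 9 h the strains overlapped, at 84.3 ± 12.2 CPM in ime4 and 85.2 ± 12.9 CPM in WT.

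ELM1, the kinase upstream of the neck kinases, was lower in ime4 than in WT at 3 and 9 h, and at 6 and 7 h its direction hung on the scaling. At 3 h it had 39.2, 41.2 and 59.8 CPM in ime4, against 82.7, 94.4 and 93.1 CPM in WT (log2 −0.95, SE 0.16, adjusted p = 1.04e-05). At 7 h it had 32.8, 36.8 and 36.1 CPM in ime4, against 77.9, 84.5 and 86.2 CPM in WT (log2 −1.23, SE 0.16, adjusted p = 2.63e-09), but with total counts only the sign turned (0.54, adjusted p = 0.00212), less than the shift of 1.78 in the median of all genes. At 6 h the difference was −0.34 (adjusted p = 0.0492), and 0.83 (adjusted p = 8.38e-06) with total counts only beside a shift of 1.14. The 6 h call was also lost in 6 of 9 fits without a replicate (−0.36 to −0.26). These were the fits without ime4 replicate 1 or 3, pho92 replicate 1 or 2, and WT replicate 1 or 2. At 9 h ELM1 averaged 48.4 ± 9.37 CPM in ime4 and 76.6 ± 6.32 CPM in WT (log2 −0.66, SE 0.16, adjusted p = 0.000241), with −0.85 under total counts only.

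HSL7 was lower in ime4 than in WT at 6 and 7 h and higher at 9 h. It had 59.1, 69.2 and 79.3 CPM in ime4 at 6 h, against 228, 185 and 146 CPM in WT (log2 −1.43, SE 0.18, adjusted p = 1.27e-09). At 7 h it had 70.3, 68.6 and 76.7 CPM in ime4, against 239, 257 and 265 CPM in WT (log2 −1.82, SE 0.18, adjusted p = 1.73e-12). With total counts only these calls were lost (−0.25 with adjusted p = 0.0713 at 6 h, −0.05 with adjusted p = 0.7 at 7 h). At 9 h it had 149, 129 and 195 CPM in ime4, against 80.4, 104 and 101 CPM in WT (log2 0.73, SE 0.18, adjusted p = 0.000283).

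Counted over the 8 genes, the calls in ime4 came after copper. At 0 h 0 of 8 were called, where 0.155% of all genes were called higher and 0.103% lower (0.258% together), although 4 of them had an unadjusted edgeR p under 0.05 (GIN4, HSL1, KCC4 and RSR1, log2 0.33 to 0.78), and DESeq2 called 0. At 2 h 0 of 8 were called by edgeR, where 5.67% of all genes were called higher and 6.7% lower (12.4% together), with 3 at an unadjusted p under 0.05 and 1 called by DESeq2. Leaving out ime4 replicate 1, pho92 replicate 1 or 3, or WT replicate 1 or 3 gave 1 or 2 calls at 2 h. At 3 h 4 were called higher and 2 lower, beside 14.8% of all genes higher and 15.9% lower (30.6% together). At 5 h 6 were higher and 0 lower, beside 23.4% and 26% (49.5%). With only the compared libraries, HSL7 was also called lower at 3 h (−0.28) and ELM1 at 5 h (−0.28). At 6 h 6 were higher and 2 lower, beside 43.6% and 34.5% (78.1%), and at 7 h again 6 and 2, beside 44.9% and 37.5% (82.4%). At 9 h 6 were higher and 1 lower, beside 46.9% and 33.3% (80.2%). With total counts only, 7 were higher and 0 lower at 6 h and at 7 h, as the log2 values of the 8 moved up by 1.13 to 1.18 at 6 h and by 1.76 to 1.77 at 7 h. The medians of the 8 were 0.54, 1.23, 1.33, 1.19 and 1.25 at 3, 5, 6, 7 and 9 h, against −0.04, −0.03, 0.21, 0.20 and 0.31 over all genes.

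**Figure D2:**
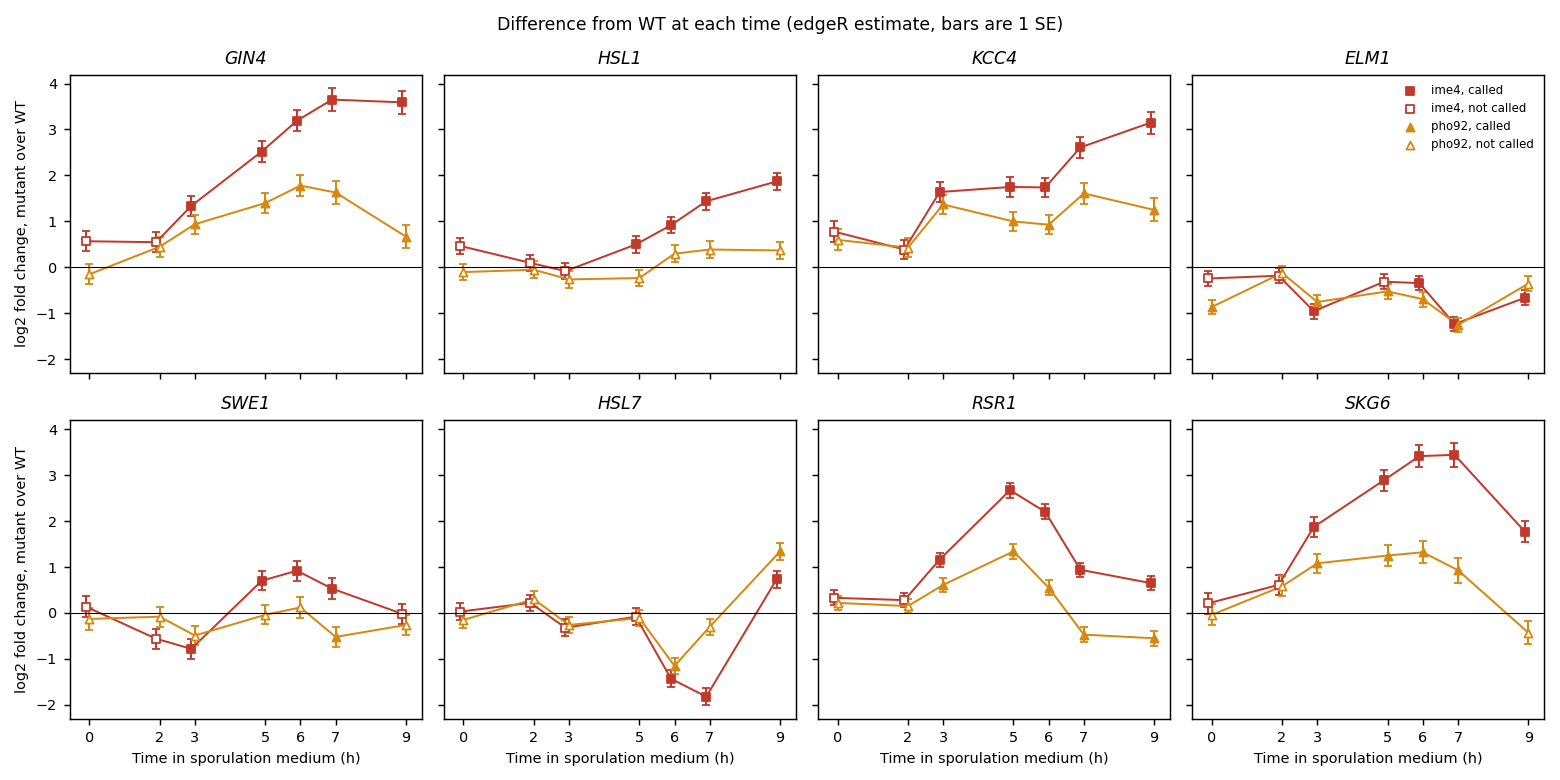
The log2 fold change of ime4 and of pho92 over WT for each gene at each time (edgeR estimate, bars are 1 SE), with filled symbols for an adjusted p under 0.05. GIN4 reached 3.65 in ime4 and 1.78 in pho92, and RSR1 in pho92 was above WT at 5 h and below it at 7 h (−0.47, but 0.36 with total counts only) and 9 h. ELM1 was below WT in both mutants at 6 and 7 h, but above it at both times in ime4 and at 6 h in pho92 with total counts only.

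In pho92 GIN4, KCC4, RSR1 and SKG6 were called higher at 3, 5 and 6 h, times at which they were called higher in ime4 too. Tested directly, ime4 differed from pho92 over the 7 times for 8 of 8 genes, where 88.9% of all genes were called, with an adjusted p of 1.06e-16 for GIN4 and 7.20e-18 for SKG6 by edgeR. Both mutants are set against the same WT libraries, so their differences are given side by side. GIN4 had 204, 302 and 201 CPM in pho92 at 3 h, against 103, 130 and 137 CPM in WT (log2 0.94, SE 0.21, adjusted p = 0.00161). At 6 h it had 59.5, 68.2 and 74.6 CPM in pho92, against 13.7, 22.8 and 22.0 CPM in WT, and no libraries overlapped (log2 1.78, SE 0.23, adjusted p = 7.12e-09; ime4 3.19). At 9 h its difference was 0.67 (adjusted p = 0.0185), a call lost without pho92 replicate 3 (0.42, adjusted p = 0.195), without ime4 replicate 2 (0.49, adjusted p = 0.0945) and with total counts only (0.23, adjusted p = 0.535).

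KCC4 had 77.4, 122 and 105 CPM in pho92 at 3 h, against 33.8, 37.4 and 46.5 CPM in WT (log2 1.37, SE 0.20, adjusted p = 3.56e-06; ime4 1.64). It stayed called to the end, with 8.47, 9.35 and 14.2 CPM in pho92 at 9 h, against 4.16, 5.11 and 4.09 CPM in WT (log2 1.25, SE 0.25, adjusted p = 3.22e-05; ime4 3.15). SKG6 averaged 54.1 ± 11.6 CPM in pho92 and 25.6 ± 6.52 CPM in WT at 3 h (log2 1.08, SE 0.21). At 6 h it averaged 12.2 ± 2.99 CPM in pho92 and 4.82 ± 0.901 CPM in WT (log2 1.32, SE 0.24; ime4 3.41). By 9 h SKG6 was at 5.51 ± 0.459 CPM in pho92 and 7.40 ± 1.58 CPM in WT, not called (−0.43, adjusted p = 0.139), but called lower with total counts only (−0.88, adjusted p = 0.0124) and without ime4 replicate 2 (−0.61, adjusted p = 0.0346).

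RSR1 crossed WT in pho92. At 5 h it had 48.8, 53.2 and 59.6 CPM in pho92, against 18.2, 22.1 and 23.5 CPM in WT (log2 1.34, SE 0.16, adjusted p = 4.60e-09; ime4 2.67). At 7 h it had 47.1, 40.8 and 43.9 CPM in pho92, against 57.7, 61.2 and 64.4 CPM in WT (log2 −0.47, SE 0.16, adjusted p = 0.00728), a sign that turned with total counts only (0.36, adjusted p = 0.0825). At 9 h it had 41.0, 39.5 and 42.0 CPM in pho92, against 48.0, 66.7 and 64.6 CPM in WT (log2 −0.55, SE 0.16, adjusted p = 0.00239; −0.99 with total counts only). The test of whether the pho92 difference varied over the times gave an adjusted p of 1.41e-09 for RSR1 by edgeR.

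ELM1 was lower in pho92 at 0 h, with 19.7, 18.7 and 19.4 CPM in pho92, against 27.3, 43.1 and 34.5 CPM in WT (log2 −0.86, SE 0.16, adjusted p = 8.31e-05). At 2 h it averaged 28.6 CPM in pho92 and 31.1 CPM in WT, with overlapping libraries and no call (log2 −0.12, adjusted p = 0.69). At 3 h it had 60.8, 55.3 and 44.4 CPM in pho92, against 82.7, 94.4 and 93.1 CPM in WT (log2 −0.75, SE 0.16, adjusted p = 0.000695). At 7 h the difference was −1.25 (SE 0.16, adjusted p = 1.60e-08; ime4 −1.23), and here it kept its sign with total counts only (−0.45, adjusted p = 0.0117). At 5 h it was −0.52 (adjusted p = 0.00986), lost without pho92 replicate 2 (−0.48, adjusted p = 0.0612) and with total counts only (−0.32, adjusted p = 0.124). At 6 h it was −0.69 (adjusted p = 0.000248), with 0.19 (adjusted p = 0.275) under total counts only. At 9 h it was −0.35 and not called (adjusted p = 0.0576). It was called lower there with RLE factors and with DESeq2 (−0.38 each), and with total counts only (−0.79, adjusted p = 6.47e-05). The same held with only the compared libraries (−0.43) and without ime4 replicate 2 (−0.53) or 3 (−0.35).

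HSL7 was lower in pho92 than in WT at 6 h and higher at 9 h, while at 7 h its direction hung on the scaling. At 6 h it had 113, 74.2 and 64.5 CPM in pho92, against 228, 185 and 146 CPM in WT (log2 −1.15, SE 0.18, adjusted p = 4.15e-07; −0.32 with adjusted p = 0.0235 with total counts only). At 7 h the 3 pho92 libraries were spread, at 284, 206 and 128 CPM, against 239, 257 and 265 CPM in WT, and overlapped them (−0.30, adjusted p = 0.134). HSL7 was called lower there with RLE factors (−0.41, adjusted p = 0.0483), with DESeq2 (−0.41, adjusted p = 0.0495) and without pho92 replicate 1 (−0.58, adjusted p = 0.00263), and higher with total counts only (0.45, adjusted p = 0.00207). At 9 h it had 245, 252 and 226 CPM in pho92, against 80.4, 104 and 101 CPM in WT (log2 1.34, SE 0.18, adjusted p = 3.40e-08; 0.90 with total counts only). In pho92 replicates 1, 2 and 3 at 6 h, where HSL7 had 113, 74.2 and 64.5 CPM, NDT80 had 2172, 1152 and 669 CPM. The part of NDT80 in these levels was not tested.

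HSL1 in pho92 hung on the scaling. With TMM, edgeR called it at 0 of the 7 times (2 at an unadjusted p under 0.05) and DESeq2 at 0, with log2 values between −0.26 and 0.39 and edgeR adjusted p between 0.0592 and 0.887. With total counts only it was called higher at 6 h (1.13, edgeR adjusted p = 1.35e-05) and at 7 h (1.25, edgeR adjusted p = 3.62e-06). It was also called at 7 h without ime4 replicate 2 (0.41), ime4 replicate 3 (0.39) or pho92 replicate 1 (0.54), and at 9 h without ime4 replicate 3 (0.37). With TMM and all libraries, SWE1 was called at 7 h alone (log2 −0.52, edgeR adjusted p = 0.0365). It had there 47.6, 41.2 and 46.0 CPM in pho92 against 75.0, 62.6 and 55.1 CPM in WT. With total counts only that call was gone (0.32, adjusted p = 0.233), and SWE1 was called higher at 6 h (0.96, adjusted p = 0.000501) and lower at 9 h (−0.70, adjusted p = 0.013). The 7 h call was lost in 5 of 9 fits without a replicate (−0.53 to −0.39), those without ime4 replicate 2, pho92 replicate 2 or 3, or WT replicate 1 or 2. Counted over the 8 genes in pho92, 0 were higher and 1 lower at 0 h, beside 10.9% of all genes higher and 7.15% lower (18.1% together). KCC4 was called higher at 0 h with RLE factors and with DESeq2 (0.63 each), and without pho92 replicate 1 (0.70) or WT replicate 1 (0.78). At 2 h 0 were called by edgeR and 0 by DESeq2, with 3 at an unadjusted p under 0.05, beside 8.47% and 3.9% of all genes (12.4%). HSL7 was called at 2 h with total counts only (0.39, adjusted p = 0.0479), SKG6 with a replicate block over all 63 libraries (0.59, adjusted p = 0.0449; 0.52 with adjusted p = 0.136 when the block was set within each time) and without pho92 replicate 2 (0.77), and KCC4 without WT replicate 1 (0.71). At 3 h 4 were higher and 1 lower, beside 10.3% and 7.64% (17.9%), and SWE1 was called lower there without WT replicate 1 (−0.60). With only the compared libraries, SWE1 (−0.49) and HSL7 (−0.27) were called lower at 3 h too. At 5 h again 4 were higher and 1 lower, beside 17.3% and 16.3% (33.6%). At 6 h 4 were higher and 2 lower, beside 37.8% and 33% (70.7%). At 7 h 3 were higher and 3 lower, beside 34.7% and 28.1% (62.8%), and at 9 h 3 and 1, beside 32.4% and 24.8% (57.1%). With total counts only, the counts higher and lower were 4 and 0 at 5 h, 6 and 1 at 6 h, 5 and 1 at 7 h, and 2 and 4 at 9 h, where that scaling moved the median of all genes by 0.21, 0.85, 0.84 and −0.45.

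The 8 courses were compared over the 21 group means, as a description, since groups share strains, times and libraries. GIN4, KCC4 and SKG6 ran most alike (Pearson r of log2(CPM + 1) of 0.94 for GIN4 with either, and 0.89 for KCC4 with SKG6), and HSL1 came next to GIN4 (0.84). ELM1 stood near 0 with these 3 (−0.14 to −0.04) and nearest to SWE1 (0.69). HSL7 was lowest with GIN4 (−0.37) and highest with NDT80 (0.88), while GIN4 had −0.31 with NDT80. These values rest on TMM scaling, and the likeness to NDT80 was not computed with total counts only. With that scaling the log2 rise of HSL7 from 3 to 6 h in WT was 0.12 (edgeR adjusted p = 0.392). Among 4894 other named genes with enough reads, the nearest courses to GIN4 were SYT1 (0.959), a gene for a nucleotide exchange factor of an Arf-like GTPase, and GIC2 (0.955), an effector of the polarity GTPase Cdc42. SWE1 ran nearest to TUB4 (0.972), the gamma-tubulin gene, and YCS4 (0.954), a condensin gene. HSL7 ran nearest to MFB1 (0.983) and RGD1 (0.979), and 358 genes passed 0.9 with it, against 17 for GIN4, 22 for SWE1 and 0 for ELM1. The nearest to KCC4 were HLR1 (0.935) and VFA1 (0.905), to HSL1 ULI1 (0.953) and INP52 (0.94), to RSR1 GOT1 (0.939) and RDH54 (0.913), to SKG6 NPP1 (0.916) and SYT1 (0.913), and to ELM1 ERP1 (0.877) and MSB4 (0.859).

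**Figure D3:**
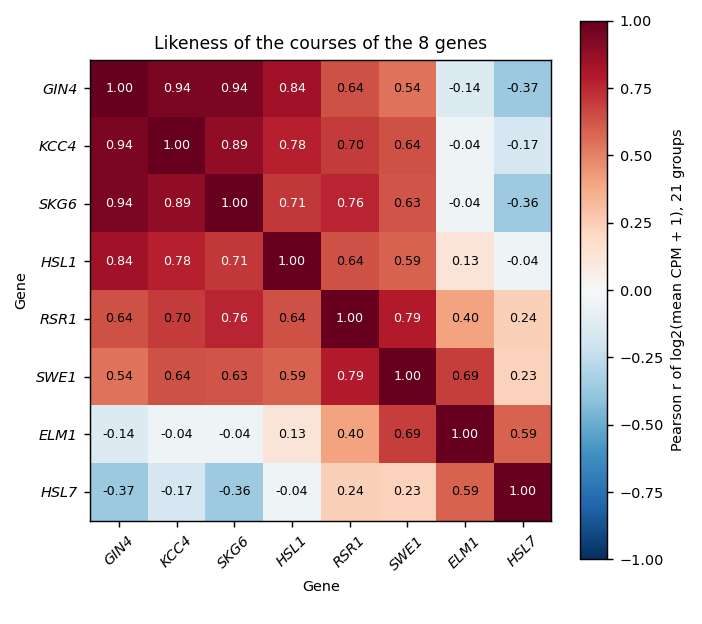
Pearson r between the courses of the 8 genes, over 21 means of strain and time of log2(mean CPM + 1), in color from −1 to 1. GIN4, KCC4 and SKG6 form the block with the highest values (0.89 to 0.94), and HSL7 with GIN4 is the lowest (−0.37).

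**Figure D4:**
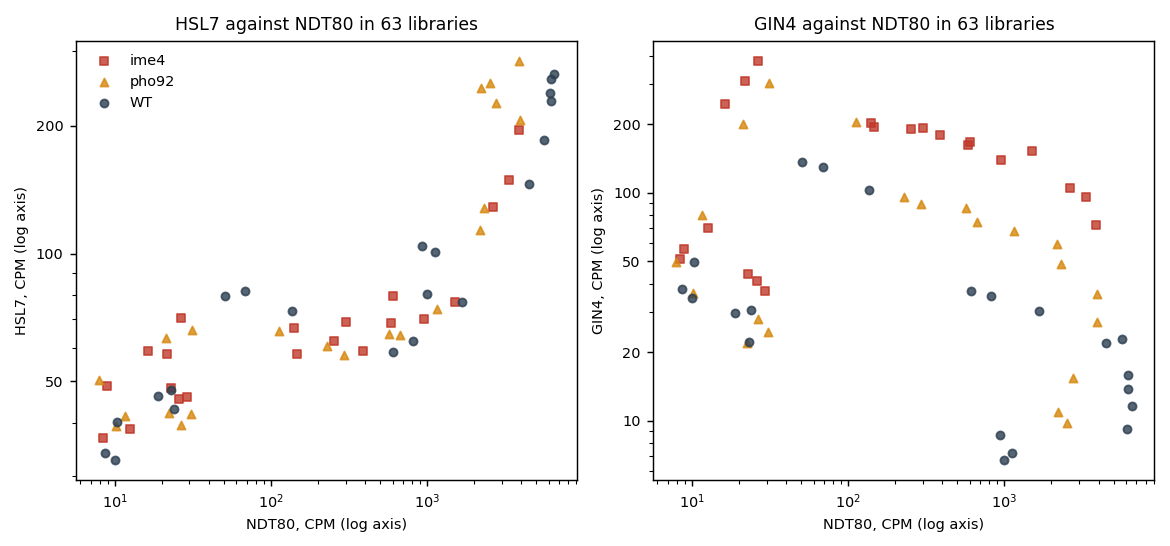
Levels of HSL7 (left) and GIN4 (right) against NDT80 in each of the 63 libraries (CPM, log axes), with ime4 as squares, pho92 as triangles and WT as circles. The 13 libraries with HSL7 above 140 CPM came from all 3 strains and had at least 2211 CPM of NDT80. Among libraries with at least 2211 CPM of NDT80, only pho92 replicate 3 at 7 h and ime4 replicate 2 at 9 h lay below 140 CPM of HSL7. The first had 128 CPM (NDT80 2305 CPM) and the second 129 CPM (NDT80 2631 CPM). The levels are TMM-scaled, and with total counts only the log2 rise of HSL7 from 3 to 6 h in WT was 0.12 and not called. Where NDT80 passed 500 CPM, GIN4 lay between 72.2 and 167 CPM in 7 ime4 libraries, between 9.83 and 86.0 CPM in 10 pho92 libraries and between 6.76 and 37.2 CPM in 12 WT libraries. In WT, NDT80 averaged 1028 CPM at 5 h, 6269 CPM at 7 h and 1014 CPM at 9 h, so a like level is not a like stage. The cuts at 140 and 500 CPM serve description only and were not among the planned tests.

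The partners of these proteins were counted in 5 lists, chosen with earlier results known, and their counts are read beside the shares of all genes called. From 2 to 3 h in WT those were 36.3% higher and 29.3% lower (50% and 18.1% with total counts only). In WT from 2 to 3 h, 9 of 14 septin ring and bud neck genes were called higher and 3 lower (median 1.13), with the septin gene CDC11 at 208 CPM at 3 h and 69.9 CPM at 2 h (log2 1.57, SE 0.11). Of 18 Cdc42 polarity genes 13 were higher and 2 lower (median 1.05), with BOI1, which binds the polarity scaffold Bem1, at 291 CPM at 3 h and 64.6 CPM at 2 h (2.17, SE 0.15). Of 10 genes of Cdk tyrosine phosphorylation and the checkpoint on bud shape, 6 were higher and 2 lower (median 0.71). CDC28, the target of Swe1, was at 345 CPM at 3 h and 87.3 CPM at 2 h (1.98, SE 0.21). MIH1, the phosphatase that undoes the work of Swe1, was lower, at 234 CPM at 3 h and 611 CPM at 2 h (−1.38, SE 0.16). Of 9 bud-site genes 4 were higher and 1 lower (median 0.62), and BUD2, the GTPase-activating protein of Rsr1, was at 140 CPM at 3 h and 46.1 CPM at 2 h (1.61, SE 0.14). Of 6 kinases related to Elm1 or to its substrates 3 were higher and 0 lower (median 0.29). The median of all genes was 0.10, and the 5 list medians stayed above that of all genes with RLE factors and with total counts only.

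At 7 h in ime4, where GIN4 stood highest over WT, the list medians lay below that of all genes with each of 3 scalings, while their sign turned with total counts only. Of all genes 44.9% were called higher and 37.5% lower (77.1% and 12.2% with total counts only). Of the 14 septin and neck genes 3 were higher and 9 lower (median −0.81, against 0.20 over all genes; 0.96 against 1.98 with total counts only, with 8 higher and 3 lower). CDC10, a septin gene, was at 821 CPM in ime4 and 10100 CPM in WT (log2 −3.62, SE 0.38), and NIS1, of the neck list, at 37.7 CPM in ime4 and 6.90 CPM in WT (2.42, SE 0.21). Of the 18 polarity genes 6 were higher and 10 lower (12 and 4 with total counts only), of the 10 Cdk genes 2 and 6 (7 and 0), of the 9 bud-site genes 3 and 4 (6 and 3), and of the 6 kinases 3 and 3 (5 and 1). Of the Cdk list, the PAK kinase gene CLA4 was at 97.7 CPM in ime4 and 16.9 CPM in WT (2.54, SE 0.19). PTP1 of that list was lower, at 84.5 CPM in ime4 and 306 CPM in WT (−1.86, SE 0.19). Among the polarity genes, RGA2 was at 43.4 CPM in ime4 and 424 CPM in WT (−3.29, SE 0.21). CDC42 was at 179 CPM in ime4 and 613 CPM in WT (−1.77, SE 0.12). GIC2 was at 101 CPM in ime4 and 19.3 CPM in WT (2.40, SE 0.21), and the bud-site gene AXL1 at 55.5 CPM in ime4 and 588 CPM in WT (−3.41, SE 0.28).

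At 9 h in ime4 14 of 14 septin and neck genes and 10 of 10 Cdk genes were higher (medians 1.61 and 1.18, against 0.31 over all genes), with the same counts under total counts only, where 46.9% of all genes were called higher and 33.3% lower (41.3% and 35.2% with total counts only). There HOF1, which acts in closing the neck, was at 124 CPM in ime4 and 11.3 CPM in WT (3.46, SE 0.31), and AXL2, a landmark protein gene for budding, at 183 CPM in ime4 and 30.9 CPM in WT (2.56, SE 0.22). The bud-site gene BUD8 was lower, at 19.4 CPM in ime4 and 165 CPM in WT (−3.08, SE 0.24). Of the 9 bud-site genes 7 were higher and 1 lower, of the 18 polarity genes 11 and 3, and of the 6 kinases 4 and 2. At 9 h in pho92 14 of 14 septin and neck genes were higher (11 with RLE factors and 6 with total counts only), as were 6 of 10 Cdk genes (medians 0.77 and 0.88, against 0.07 over all genes), beside 32.4% of all genes called higher and 24.8% lower (15.9% and 43.7% with total counts only). CLB2, the mitotic cyclin gene of the Cdk list, was at 24.3 CPM in pho92 and 7.59 CPM in WT (1.67, SE 0.33). Higher and lower were 10 and 1 of the 18 polarity genes (4 and 5 with total counts only). For the 9 bud-site genes the counts were 5 and 1 (4 and 2), and for the 6 kinases 4 and 0 (3 and 2).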

How the data were processed

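Messenger RNA was sequenced as single reads of 50 nt from stranded libraries made from 500 ng of total RNA, per the labels' protocols. The deposited table holds raw read counts per gene made by the authors, with gene length and position. The submitters' processing notes name bcl2fastq 2.17.1.14, TopHat2 2.0.14, Bowtie, HTSeq 0.6.1, R 3.5.1 and DESeq2 1.22.1. For the genome build, strand setting and reads with several matches the sources used here give nothing. Of the gene IDs, 5575 matched locus tags of the S288C assembly R64 and 513 did not, and 4 lines were empty. The table's start equalled that of R64 for 99.93% of matched genes, and sequences are those of R64, not of SK1.

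Counts were fitted with edgeR 4.0.16 (limma 3.58.1, R 4.3.3) in one quasi-likelihood model with a term for each of the 21 groups of strain and time, over all 63 libraries, with TMM scaling. The filter filterByExpr (minimum count 10) left 5822 of 6088 genes and removed 266. The fit had 42 residual degrees of freedom and a common biological coefficient of variation of 0.184. It gave 18 contrasts and 3 F tests, each adjusted over all genes tested by the method of Benjamini and Hochberg. The script was tested on simulated data. Total counts were 12826747 to 33048881 per library (median 16834032), and the precision given covers the spread between replicates. Replicates of a group differed by more than sampling noise (chi-square per degree of freedom 9.46 to 652.19). Groups of 3 libraries were compared throughout.

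Whether equal replicate numbers pair libraries was checked by correlating deviations from group means over genes. Every same-numbered pair exceeded 0.1 between pho92 and WT at 2 h (0.109 to 0.602), 5 h (0.255 to 0.758) and 6 h (0.256 to 0.638) and between WT at 3 and 2 h (0.13 to 0.227), and in none of the other ime4, pho92 or WT contrasts. For pho92 at those 3 times a fit of the 42 pho92 and WT libraries with replicate number within time as a block (14 residual degrees of freedom) was added after the data were seen. No paired fit was made for WT at 3 and 2 h. With a replicate block over all 63 libraries every member was still called higher there, from 0.79 (KCC4) to 2.55 (SWE1) on the log2 scale.

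The members and gene lists were chosen with earlier results of these data known. The other genes named were up to 3 called members of a list with the smallest adjusted p in a contrast, and the 2 named genes with a mean of at least 10 CPM most correlated with each member over the 21 group means of log2(CPM + 1). The alternatives were RLE factors, total counts only, no filter on low counts, DESeq2 1.42.0, only the libraries compared, a replicate block, and 9 fits that each left out 1 replicate of a strain. The other scalings of the gene lists were added after the data were seen.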

Additional observations from a re-analysis of the deposited data

Results flagged for a closer look

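The difference between ime4 and WT was not the same at all 7 times for any of the 8 genes, by edgeR's quasi-likelihood F test over the times, which called 96.3% of all genes. The adjusted p by edgeR was 2.12e-15 for GIN4, 1.80e-09 for HSL1, 1.46e-10 for KCC4 and 7.75e-05 for ELM1. It was 2.65e-06 for SWE1, 6.35e-13 for HSL7, 5.06e-15 for RSR1 and 3.98e-14 for SKG6.

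The difference between pho92 and WT varied over the times for 7 of the 8, where 90.6% of all genes were called. The edgeR adjusted p was 1.60e-06 for GIN4, 0.0402 for HSL1, 0.00544 for KCC4 and 0.000579 for ELM1. It was 1.70e-09 for HSL7, 1.41e-09 for RSR1 and 1.17e-05 for SKG6, while SWE1 was not called (0.342).

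Set against each other over the 7 times, ime4 and pho92 differed for all 8 genes, where 88.9% of all genes were called. The edgeR adjusted p was 1.06e-16 for GIN4, 2.83e-11 for HSL1, 1.31e-10 for KCC4 and 0.00339 for ELM1. It was 2.79e-06 for SWE1, 2.35e-08 for HSL7, 2.00e-17 for RSR1 and 7.20e-18 for SKG6. With 3 libraries in each group, single libraries were not tested for standing apart.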

How the results depend on the processing

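Of 91 calls of a member in a contrast, 81 kept their direction and side of the threshold with total counts only, 5 were lost and 5 turned sign. The 5 that turned were ELM1 in ime4 at 6 h (0.83) and 7 h (0.54), ELM1 in pho92 at 6 h (0.19), SWE1 in pho92 at 7 h (0.32) and RSR1 in pho92 at 7 h (0.36). ELM1 in ime4 at 6 h was lost without a low-count filter (−0.34, edgeR adjusted p = 0.0539). With only the compared libraries, genes called were 1 for ime4 at 0 h, against 15 with all libraries, 166 for pho92 at 2 h, against 720, and 2215 for pho92 at 3 h, against 1042. DESeq2 called 26 genes for ime4 at 0 h, 1 member for ime4 at 2 h and 2 members for pho92 at 0 h. RLE factors also gave 2 members for pho92 at 0 h (1 in the edgeR fit with TMM), and total counts only gave 1 for pho92 at 2 h, against 0. The cause was not tested.

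Leaving out 1 replicate gave 9 to 70 genes called for ime4 at 0 h, 377 to 850 at 2 h and 1019 to 1982 at 3 h, where all libraries gave 15, 720 and 1782. For pho92 it gave 553 to 1326 at 0 h, 224 to 982 at 2 h, 395 to 1141 at 3 h and 1209 to 2179 at 5 h, where all libraries gave 1052, 720, 1042 and 1958. The lowest counts came without ime4 replicate 2 (ime4 at 0 and 2 h), WT replicate 1 (pho92 at 5 h) or WT replicate 2 (the others). Members called were 0 to 2 for ime4 at 2 h, 1 to 2 for pho92 at 0 h and 0 to 1 for pho92 at 2 h.

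Of 42 same-numbered pairs of a mutant and WT library, 18 had deviations correlated above 0.1 (range −0.675 to 0.758), 9 of them in pho92 at 2, 5 and 6 h, where all 3 pairs did. With the replicate block within time, added for these 3 times, 0, 5 and 6 members were called, as without it, and 818, 2053 and 4153 genes. With a replicate block over all 63 libraries, 1 member was called for ime4 at 2 h and 1 for pho92 at 2 h, and ELM1 in ime4 at 6 h was lost (−0.34, edgeR adjusted p = 0.0527). Over the 63 libraries the likeness of ELM1 and ERP1 was 0.824, against 0.877 over group means.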
